A study of Mus musculus with 8 samples.

Results

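The genes described here are 37 genes that mark macrophages or leukocytes, followed by RNA-seq in cultures of mouse embryonic fibroblasts (MEFs). They were taken by symbol from the 50578 genes of the count table, and each was found under a single Ensembl identifier. The list was drawn up with earlier results of these data known. MEFs were wild-type connective tissue cells grown from C57BL/6J embryos after removal of the head, limbs and internal organs, and were used between passages 3 and 5. Untreated MEFs were compared with MEFs kept in 1 of 3 small molecules at 10 µM, with medium renewed every 3 days, and each group had 2 libraries. The compounds were CHIR-99021, an inhibitor of the kinase GSK3, LY-364947, an inhibitor of the TGF-beta type I receptor, and carbidopa, which blocks the decarboxylase that makes dopamine from L-DOPA. The sample labels spell LY-364947 as LY-364747. No sort for macrophages is described, and the sources used here do not give the duration of treatment for the RNA-seq or say whether controls received solvent. They also do not state whether replicate libraries came from separate embryos or cultures, so p-values measure only the spread between these libraries, which may be technical.

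Macrophages are phagocytes that live in almost every tissue, including embryonic connective tissue. They depend on the receptor Csf1r and its ligands Csf1 and Il34, and the transcription factor PU.1, encoded by Spi1, directs much of their gene program. They take up debris through scavenger and Fc receptors, signal through the ITAM adaptors Tyrobp and Fcer1g, make the complement component C1q, and degrade what they engulf in lysosomes. A loss of macrophages alone would lower every such gene by one common factor if no other cell made it, and the question put to the data was whether the genes fell by the same factor. In a bulk culture, fewer macrophages and less RNA of these genes per macrophage cannot be told apart.

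Total reads per library ranged from 15039566 to 20504338. Levels are given as CPM, the reads of a gene scaled by TMM-adjusted library sizes. The carbidopa replicates differed most, with a chi-square of 37.9 per degree of freedom against 4.57 to 10.0 in the other groups, where sampling noise alone gives about 1. Fibroblast markers were abundant, and they moved too. Their sum over 12 genes was 26.1%, 31.9% and 32.0% of the MEF level under carbidopa, LY-364947 and CHIR-99021, with 10 genes lower and 1 higher in each, and the part of this in the results on macrophage genes was not tested. Among all genes tested, 19.7%, 17.2% and 20.1% were lower and 18%, 13.7% and 18.7% higher.

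Macrophage transcripts were present in untreated MEFs, where the 37 genes took 0.165% and 0.168% of all reads. Per kilobase of exon, the highest mean level was that of the lysozyme gene Lyz2 at 569 CPM per kb, followed by the lysosomal glycoprotein gene Cd68 at 83.9, the cathepsin gene Ctss at 68.9, Fcer1g at 49.9 and the pore-forming protein gene Mpeg1 at 48.6. On the same scale Adgre1 stood at 10.9, Csf1r at 6.12 and Spi1 at 2.60 CPM per kb. The cultures held almost none of some markers. The scavenger receptor gene Cd163 had no read in either MEF library, which allows up to 3 reads in each. The macrophage marker Aif1 had 3 and 4 reads there, the chemokine gene Pf4 5 and 7, and the high-affinity Fc receptor gene Fcgr1 8 and 23.

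The promoters of 6 genes are shown because these genes mark the ends and the exceptions of the pattern described below. Each window runs from 250 bases before to 50 after the gene start (RefSeq, GRCm38.p6, the assembly also called mm10) and reads in the direction of the gene. Capitals mark GAGGAA or its complement TTCCTC, a core that PU.1 can bind, counted on both strands as one motif.
Mrc1, chr2:14229164-14229463, plus strand: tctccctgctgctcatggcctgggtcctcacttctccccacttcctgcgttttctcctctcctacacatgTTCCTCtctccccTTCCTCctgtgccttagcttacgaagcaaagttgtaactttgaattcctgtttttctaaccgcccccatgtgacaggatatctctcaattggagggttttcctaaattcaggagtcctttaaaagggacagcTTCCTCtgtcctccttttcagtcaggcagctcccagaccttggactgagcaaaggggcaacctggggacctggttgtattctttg
Cx3cr1, chr9:120068247-120068546, minus strand: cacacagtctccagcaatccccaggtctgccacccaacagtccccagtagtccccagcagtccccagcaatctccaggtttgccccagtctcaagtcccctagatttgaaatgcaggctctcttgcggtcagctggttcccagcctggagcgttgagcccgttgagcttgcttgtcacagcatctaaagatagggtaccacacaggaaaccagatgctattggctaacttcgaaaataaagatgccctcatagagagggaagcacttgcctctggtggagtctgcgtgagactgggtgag
Ctss, chr3:95526536-95526835, plus strand: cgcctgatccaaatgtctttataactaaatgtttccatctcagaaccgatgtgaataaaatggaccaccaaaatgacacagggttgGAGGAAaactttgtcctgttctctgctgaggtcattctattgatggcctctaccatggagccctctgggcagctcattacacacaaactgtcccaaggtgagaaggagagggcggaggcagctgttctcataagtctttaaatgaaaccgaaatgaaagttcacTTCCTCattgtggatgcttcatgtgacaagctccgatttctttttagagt
Trem2, chr17:48346151-48346450, plus strand: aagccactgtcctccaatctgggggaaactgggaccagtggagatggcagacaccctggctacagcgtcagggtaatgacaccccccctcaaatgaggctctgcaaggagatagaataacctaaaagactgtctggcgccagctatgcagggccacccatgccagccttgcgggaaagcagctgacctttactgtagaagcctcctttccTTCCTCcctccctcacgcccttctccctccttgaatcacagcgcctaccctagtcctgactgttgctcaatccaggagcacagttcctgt
Cd53, chr3:106790100-106790399, minus strand: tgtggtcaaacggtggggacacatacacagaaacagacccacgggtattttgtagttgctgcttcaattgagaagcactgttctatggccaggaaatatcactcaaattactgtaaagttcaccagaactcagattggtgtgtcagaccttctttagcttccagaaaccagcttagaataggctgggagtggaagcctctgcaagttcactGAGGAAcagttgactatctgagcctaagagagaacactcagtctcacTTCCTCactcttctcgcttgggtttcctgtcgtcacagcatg
C1qb, chr4:136886151-136886450, minus strand: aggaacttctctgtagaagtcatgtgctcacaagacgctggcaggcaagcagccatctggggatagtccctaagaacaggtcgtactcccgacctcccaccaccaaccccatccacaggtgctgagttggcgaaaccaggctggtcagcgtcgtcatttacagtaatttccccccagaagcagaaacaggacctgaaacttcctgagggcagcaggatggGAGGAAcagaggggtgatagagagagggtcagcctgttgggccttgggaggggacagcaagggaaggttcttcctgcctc
The motif stood 3 times in the window of the mannose receptor gene Mrc1, 2 times each in those of Ctss and the tetraspanin gene Cd53, 1 time each in those of the lipid receptor gene Trem2 and the complement gene C1qb, and 0 times in that of the chemokine receptor gene Cx3cr1. Windows were at hand for 27 of the 37 genes, and 16 of their 32 windows (50%) held the motif, against 9289 of 32851 windows over all genes (28.3%). A match describes the sequence and is not evidence of binding, and its absence says only that these letters are not in the window.

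The summed level of the 37 genes was lower in every treated library. It was 1847 and 1910.3 CPM in the MEF libraries, 566 and 564 under carbidopa, 431 and 439 under LY-364947 and 152 and 158 under CHIR-99021. The treated sums were 30.1%, 23.2% and 8.26% of the MEF mean. They depend on the TMM factors, 0.895 and 0.880 in MEF and 1.03 to 1.06 in treated libraries. As unscaled shares of all reads, the 37 genes took 0.165% and 0.168% in MEF and 0.0601% and 0.0590% under carbidopa. The shares were 0.0443% and 0.0459% under LY-364947 and 0.0157% and 0.0162% under CHIR-99021. Replicates lay close together, and no groups overlapped. Lyz2 gave 40.0% and 39.7% of the reads on these genes in MEF, and without it the sums were 32.2%, 25.9% and 9.22% of MEF.

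**Figure D1:**
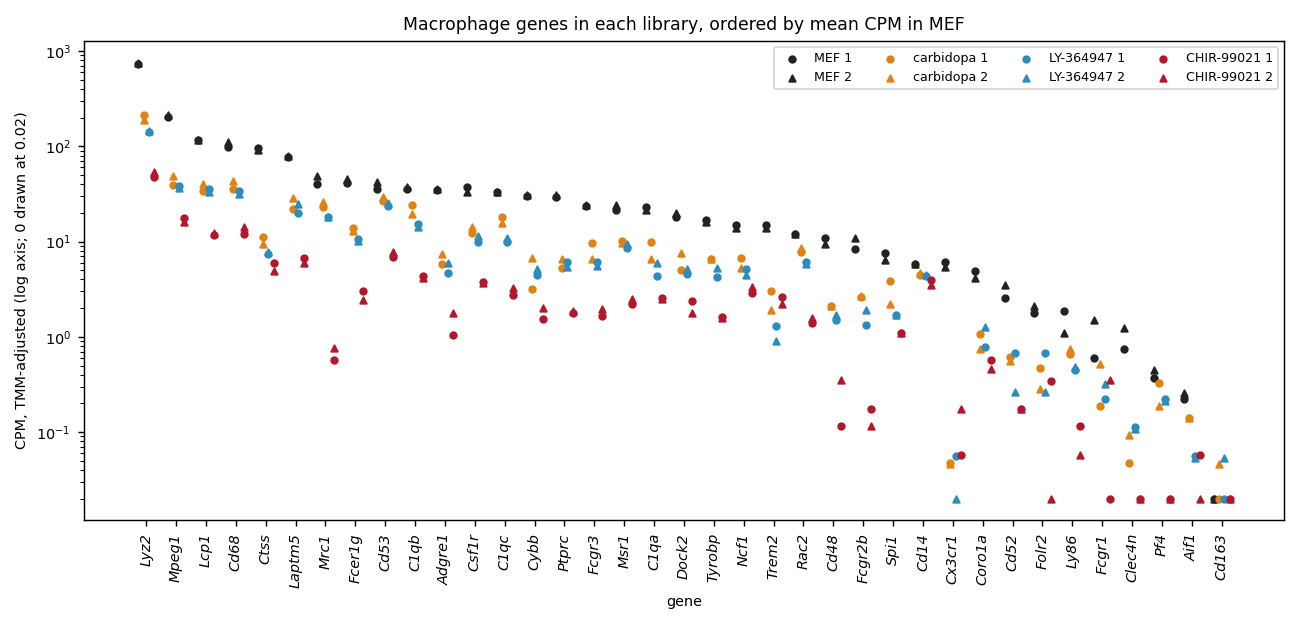
Each point is the level of a macrophage gene in 1 library, in CPM on a log axis with zeros drawn at 0.02. For 36 of the 37 genes the points of the MEF libraries lie above those of all treated libraries, a pattern whose share over all genes was not computed. Cd14 has the narrowest range among genes with over 5 CPM in MEF.

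Of the 37 genes, 33 passed the filter on low counts and Aif1, Cd163, Fcgr1 and Pf4 did not. All 33 reached the filter in MEF and only 25 of them under CHIR-99021, and 3 (Cx3cr1, Folr2 and Clec4n) reached it in both libraries of MEF but of no treated group. Cx3cr1 and Clec4n reached it in MEF libraries alone, so that the direction of their falls was fixed by the filter, though not the size. The same holds for Folr2 under carbidopa and CHIR-99021, while 1 LY-364947 library also reached the filter for Folr2. Counts over the 33 genes are therefore a description. By edgeR's quasi-likelihood test over 15154 genes (adjusted p under 0.05), 31 genes were lower under carbidopa, 32 under LY-364947 and 33 under CHIR-99021, and 0 were higher. Over all genes tested, 19.7%, 17.2% and 20.1% were lower and 18%, 13.7% and 18.7% higher in these comparisons, which share the MEF libraries. Both treated libraries lay below both MEF libraries for 36 of the 37 genes in each comparison, and for 33.3%, 35.2% and 35.8% of all genes tested. The exception was Cd163, with at most 1 read in any library. Among the 33 genes the log2 fold change had a median of -1.63, -2.04 and -3.46 under carbidopa, LY-364947 and CHIR-99021, against 0.04, 0.03 and 0.04 over all genes tested. With CHIR-99021 the median is the same with Clec4n, which had no reads there, set at 11.6-fold lower, the value for 3 reads given below. It was not computed at the lower limit of the Clec4n interval. Without the filter, the carbidopa median over all 37 genes was -1.55. It was -1.71 without carbidopa replicate 1 and -1.79 without carbidopa replicate 2.

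The receptors and the factor that define the macrophage were all lower. Adgre1, which encodes the surface protein F4/80, had 34.7 and 36.1 CPM in MEF, 5.84 and 7.46 under carbidopa, 4.71 and 6.02 under LY-364947 and 1.04 and 1.80 under CHIR-99021. The log2 fold changes of Adgre1 were -2.41 (standard error 0.19), -2.72 (0.20) and -4.64 (0.27) under carbidopa, LY-364947 and CHIR-99021, so that 18.8%, 15.2% and 4.01% of its MEF level remained. Csf1r, the receptor that macrophages need to survive, had 37.4 and 33.2 CPM in MEF, 12.4 and 14.2 under carbidopa, 9.88 and 11.4 under LY-364947 and 3.80 and 3.66 under CHIR-99021. The values of Csf1r lay nearer to 0, at -1.40 (standard error 0.14), -1.73 (0.14) and -3.24 (0.16) in the same order of compounds. Exons of Csf1r overlap those of Hmgxb3 on the opposite strand, and 13.9% of its 75-base words also occur there, so reads could be exchanged. Spi1 had 7.59 and 6.45 CPM in MEF, 3.81 and 2.19 under carbidopa, 1.68 and 1.70 under LY-364947 and 1.09 and 1.10 under CHIR-99021. Changes of Spi1 were -1.22 (standard error 0.27), -2.04 (0.29) and -2.67 (0.32). Adgre1 gave 0.926 and 1.09 reads per read of Csf1r in the MEF libraries, 0.470 to 0.526 in the carbidopa and LY-364947 libraries and 0.273 and 0.492 under CHIR-99021. These markers of one cell type did not keep the ratio they had in MEF.

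Cx3cr1, the fractalkine receptor of tissue macrophages and microglia, had the largest falls under carbidopa and LY-364947. It had 82 and 84 reads in MEF, 1 and 1 under carbidopa, 1 and 0 under LY-364947 and 1 and 3 under CHIR-99021. On pooled reads its level was 122 times lower under carbidopa (95% interval 33.3 to 1019, counting error only), 209.9 times lower under LY-364947 (37.2 to 8338) and 49.6 times lower under CHIR-99021 (19.0 to 184). The intervals overlap, and no difference in Cx3cr1 between treatments passed edgeR's test (adjusted p = 0.495 for CHIR-99021 against carbidopa, 0.334 against LY-364947 and 0.851 for LY-364947 against carbidopa). Clec4n, the C-type lectin Dectin-2, had 10 and 19 reads in MEF, 1 and 2 under carbidopa, 2 and 2 under LY-364947 and 0 and 0 under CHIR-99021. Clec4n was 11.6-fold lower under CHIR-99021, taking 3 reads over the group as the limit that a count of 0 allows. With counting error in MEF included, the 95% interval of Clec4n on pooled reads runs from 8.81-fold upward. Its call under LY-364947 was lost without MEF replicate 2 or either LY-364947 library (-2.69, -3.14 and -3.07), and with DESeq2 (adjusted p = 0.0736), and that under carbidopa without MEF replicate 2 (-3.29). Pf4, a chemokine of platelets and some macrophages, had 5 and 7 reads in MEF, 7 and 4 under carbidopa, 4 and 4 under LY-364947 and 0 and 0 under CHIR-99021. On the same limit Pf4 was 4.78-fold lower under CHIR-99021, with a 95% interval from 3.32-fold upward.

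Scavenger and pattern receptors went separate ways. Mrc1, the mannose receptor CD206, had 40.0 and 48.8 CPM in MEF, 23.1 and 26.0 under carbidopa, 18.2 and 18.1 under LY-364947 and 0.576 and 0.754 under CHIR-99021. Mrc1 changed by -0.86 (standard error 0.13), -1.29 (0.14) and -6.05 (0.27), so that 55.2% of its MEF level remained under carbidopa and 1.5% under CHIR-99021. Msr1, the class A scavenger receptor, kept 43.3%, 39.7% and 10.3%. Folr2, a folate receptor of resident macrophages, kept 19.2%, 24% and 8.83%, but it had only 24 and 33 reads in the MEF libraries, 47.1% of its words lie in the overlapping Gm10602, so that its reads may be mixed. The call of Folr2 under carbidopa was lost without either MEF library or carbidopa replicate 2 (-2.49, -2.24 and -2.04), and that under LY-364947 without any 1 MEF or LY-364947 library (-2.85 to -1.53) and with DESeq2 (adjusted p = 0.0696). Cd14, the co-receptor for bacterial lipopolysaccharide, had 5.87 and 5.87 CPM in MEF, 4.47 and 4.67 under carbidopa, 4.32 and 4.47 under LY-364947 and 3.97 and 3.48 under CHIR-99021. All treated libraries lay below MEF, but the changes of Cd14 were the smallest of the tested genes, at -0.36 (standard error 0.19), -0.42 (0.19) and -0.65 (0.19). Only the last passed edgeR's quasi-likelihood test (adjusted p = 0.149, 0.124 and 0.0211). That call was lost without either MEF library (-0.65 and -0.66) and without either CHIR-99021 library (-0.75 and -0.56), and with DESeq2 (adjusted p = 0.0989). Trem2, a lipid receptor that signals through Tyrobp, had 14.8 and 13.7 CPM in MEF, 3.06 and 1.91 under carbidopa, 1.29 and 0.905 under LY-364947 and 2.65 and 2.21 under CHIR-99021. Unlike most of the genes it was lowest under LY-364947, with changes of -2.52 (standard error 0.25), -3.70 (0.30) and -2.55 (0.25).

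The tested Fc receptors, Fcgr2b and Fcgr3, and both adaptors were lower under each compound, and Fcgr1 had too few reads to be tested. Tyrobp, the adaptor DAP12, had 16.8 and 15.9 CPM in MEF, 6.59 and 6.53 under carbidopa, 4.27 and 5.33 under LY-364947 and 1.61 and 1.57 under CHIR-99021. Fcer1g, the Fc receptor gamma chain, had 41.6 and 45.6 CPM in MEF, 13.9 and 13.1 under carbidopa, 10.6 and 10.1 under LY-364947 and 3.05 and 2.44 under CHIR-99021. Tyrobp changed by -1.32 (standard error 0.16), -1.77 (0.17) and -3.36 (0.21) and Fcer1g by -1.69 (standard error 0.13), -2.07 (0.13) and -3.99 (0.16). The ratio of the adaptors ranged over 0.349 to 0.643 reads of Tyrobp per read of Fcer1g over the 8 libraries. Trem2 and its adaptor moved further apart. Reads of Trem2 per read of Tyrobp were 0.881 and 0.862 in MEF, 0.464 and 0.293 under carbidopa, 0.303 and 0.170 under LY-364947 and 1.64 and 1.41 under CHIR-99021, below MEF under carbidopa and LY-364947 and above it under CHIR-99021. Fcgr3, an activating Fc receptor, had 23.6 and 24.1 CPM in MEF, 9.65 and 6.58 under carbidopa, 6.12 and 5.59 under LY-364947 and 1.67 and 1.97 under CHIR-99021. Fcgr2b, the inhibitory Fc receptor, had 8.40 and 11 CPM in MEF, 2.64 and 2.66 under carbidopa, 1.35 and 1.92 under LY-364947 and 0.173 and 0.116 under CHIR-99021. Fcgr3 changed by -1.55 (standard error 0.19), -2.02 (0.19) and -3.70 (0.24) and Fcgr2b by -1.88 (standard error 0.24), -2.57 (0.26) and -6.01 (0.58). Reads of the inhibitory per read of the activating receptor were 0.356 and 0.458 in MEF, 0.273 and 0.404 under carbidopa, 0.220 and 0.343 under LY-364947 and 0.103 and 0.0588 under CHIR-99021, where Fcgr2b had 3 and 2 reads. Of the words of Fcgr3, 5.42% also occur in Fcgr2b, so a few reads could be exchanged.

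The C1q genes, neighbours on chromosome 4 that encode the chains of one protein, did not keep their MEF proportions under carbidopa and LY-364947. C1qa had 22.9 and 21.5 CPM in MEF, 9.93 and 6.53 under carbidopa, 4.38 and 5.96 under LY-364947 and 2.53 and 2.50 under CHIR-99021. C1qb had 36.1 and 37.6 CPM in MEF, 24.4 and 19.7 under carbidopa, 15.3 and 14.3 under LY-364947 and 4.32 and 4.12 under CHIR-99021. C1qc had 33.4 and 33 CPM in MEF, 18.3 and 15.6 under carbidopa, 9.93 and 10.8 under LY-364947 and 2.76 and 3.25 under CHIR-99021. MEF libraries were above all treated libraries for each chain. With carbidopa 37.1% of C1qa, 59.8% of C1qb and 51.1% of C1qc remained. The shares were 23.3%, 40.1% and 31.2% under LY-364947 and 11.3%, 11.5% and 9.05% under CHIR-99021. Log2 fold changes were -1.43 (standard error 0.21), -2.10 (0.22) and -3.14 (0.25) for C1qa, -0.74 (standard error 0.13), -1.32 (0.14) and -3.12 (0.16) for C1qb and -0.97 (standard error 0.13), -1.68 (0.14) and -3.46 (0.17) for C1qc. Reads of C1qa per read of C1qb were 0.635 and 0.571 in MEF, 0.407 and 0.332 under carbidopa, 0.287 and 0.418 under LY-364947 and 0.587 and 0.606 under CHIR-99021. In this ratio the CHIR-99021 libraries stood within the MEF range and the other treated libraries below it. Reads of C1qc per read of C1qb were 0.926 and 0.878 in MEF, 0.751 and 0.794 under carbidopa, 0.651 and 0.757 under LY-364947 and 0.640 and 0.789 under CHIR-99021, below MEF in all treated libraries. Reads of C1qa per read of C1qc were 0.686 and 0.650 in MEF, 0.542 and 0.418 under carbidopa, 0.441 and 0.552 under LY-364947 and 0.917 and 0.768 under CHIR-99021, so that CHIR-99021 stood above MEF in this ratio and the other compounds below it.

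**Figure D2:**
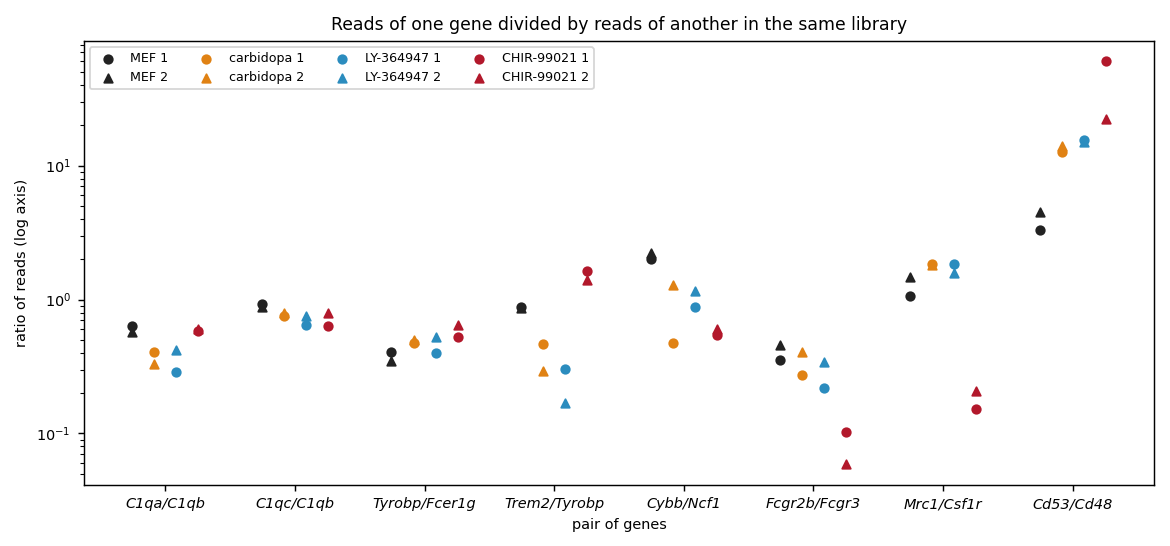
Reads of one macrophage gene divided by reads of another in the same library, on a log axis, for 8 pairs of genes, with the replicates of each group as separate points. The ratio of Mrc1 to Csf1r drops to 0.152 and 0.206 under CHIR-99021, and Cd53 to Cd48 is 3.29 and 4.50 in MEF and 12.7 to 60.5 in the treated libraries.

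Among the genes for killing and degradation, all were lower under each compound. Lyz2 had 738 and 758 CPM in MEF, 215 and 187 under carbidopa, 141 and 144 under LY-364947 and 47.8 and 53.8 under CHIR-99021. Lyz2 changed by -1.90 (standard error 0.11), -2.39 (0.11) and -3.88 (0.11), and shares 5.96% of its words with its paralog Lyz1. Cd68 had 99.6 and 111 CPM in MEF, 35.7 and 43.4 under carbidopa, 33.8 and 31.3 under LY-364947 and 12.1 and 14.2 under CHIR-99021, with changes of -1.41 (standard error 0.13), -1.70 (0.13) and -3.0 (0.14). Ctss, which encodes a cathepsin used in antigen presentation, had 95.7 and 91.3 CPM in MEF, 11.1 and 9.38 under carbidopa, 7.35 and 7.72 under LY-364947 and 5.93 and 4.87 under CHIR-99021. The changes of Ctss, -3.19 (standard error 0.13), -3.63 (0.13) and -4.11 (0.14), lay closer together across the compounds than those of Lyz2 or Cd68. Mpeg1 kept 20.9%, 17.7% and 7.96% of its MEF level and the lysosomal gene Laptm5 kept 32.3%, 28.3% and 8.07%.

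The phagocyte NADPH oxidase, which makes superoxide, is built from a membrane part that includes Cybb and cytosolic parts that include Ncf1 and Rac2. Cybb had 29.8 and 31.0 CPM in MEF, 3.20 and 6.67 under carbidopa, 4.49 and 5.17 under LY-364947 and 1.55 and 2.03 under CHIR-99021. Ncf1 had 14.9 and 14.0 CPM in MEF, 6.73 and 5.22 under carbidopa, 5.11 and 4.47 under LY-364947 and 2.88 and 3.37 under CHIR-99021. Rac2 had 12 and 11.9 CPM in MEF, 7.81 and 8.49 under carbidopa, 6.17 and 5.75 under LY-364947 and 1.38 and 1.57 under CHIR-99021. The subunits separated, since under carbidopa 16.2% of Cybb, 41.4% of Ncf1 and 68.4% of Rac2 remained, and under CHIR-99021 5.89%, 21.6% and 12.4%. Cybb changed by -2.62 (standard error 0.26), -2.65 (0.27) and -4.08 (0.33), Ncf1 by -1.27 (standard error 0.18), -1.59 (0.19) and -2.21 (0.20) and Rac2 by -0.55 (standard error 0.16), -1.0 (0.16) and -3.01 (0.20). Cybb also showed the widest gap between carbidopa replicates among the 23 most abundant members, and its ratio to Ncf1 was 2.00 and 2.22 in MEF, 0.476 and 1.28 under carbidopa, 0.879 and 1.15 under LY-364947 and 0.540 and 0.603 under CHIR-99021. The call of Rac2 under carbidopa was lost without carbidopa replicate 1 (-0.49) and without either MEF library (-0.54 and -0.56). It was also lost with DESeq2 (adjusted p = 0.0916) and with edgeR fitted to the MEF and carbidopa libraries alone (adjusted p = 0.0554). Exons of Ncf1 overlap those of Gtf2ird2 on the opposite strand, with 5.44% of words shared.

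Leukocyte surface and cytoskeletal genes also parted. Ptprc, the leukocyte antigen CD45, had 29.7 and 30.8 CPM in MEF, 5.27 and 6.62 under carbidopa, 6.06 and 5.43 under LY-364947 and 1.78 and 1.86 under CHIR-99021. Ptprc changed by -2.34 (standard error 0.16), -2.39 (0.16) and -4.05 (0.20). Cd53, a leukocyte tetraspanin, had 35.7 and 42.7 CPM in MEF, 27.0 and 29.4 under carbidopa, 23.5 and 25.5 under LY-364947 and 6.97 and 7.78 under CHIR-99021, with changes of -0.48 (standard error 0.13), -0.68 (0.13) and -2.41 (0.14). The call of Cd53 under carbidopa was lost without MEF replicate 2, at -0.35. Cd48, an adhesion molecule, kept 20.7%, 15.8% and 2.28% of its MEF level and the glycoprotein gene Cd52 kept 19.5%, 15.6% and 5.77%. Reads of Cd53 per read of Cd48 were 3.29 and 4.50 in MEF, 12.7 and 14.0 under carbidopa, 15.5 and 15 under LY-364947 and 60.5 and 22.3 under CHIR-99021, where Cd48 had 2 and 6 reads. The treated libraries all lay above MEF in this ratio. The actin regulators Lcp1, Dock2 and Coro1a kept 31.7%, 33.3% and 20.1% under carbidopa, 29.6%, 25.5% and 22.7% under LY-364947, and 10.3%, 10.9% and 11.4% under CHIR-99021. Ly86, which encodes MD-1, had 25 and 17 reads in MEF, 14 and 16 under carbidopa, 8 and 9 under LY-364947 and 2 and 1 under CHIR-99021. It did not pass under carbidopa, and its call under LY-364947 was lost without MEF replicate 1 (-1.23) and without either LY-364947 library (-1.60 and -1.70), and with DESeq2 (adjusted p = 0.133).

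The genes did not fall from their MEF levels by one factor. The 3 genes that reached the filter in both libraries of no treated group were left out, a choice made after the data had been seen. Log2 fold changes of the other 30 ran from -3.19 (Ctss) to -0.36 (Cd14) with carbidopa. Their SD was 0.70, 0.73 and 1.07 under carbidopa, LY-364947 and CHIR-99021, against 1.17, 1.18 and 1.24 with those 3 included. Over all genes tested the SD was 1.16, 1.14 and 1.22, so a spread this wide was not particular to the members. The median standard error of a single gene among the 33 was 0.18, 0.19 and 0.21. Genes with few reads widen the values of the members. The 23 genes with a mean of at least 5 CPM over all libraries, MEF included, were therefore taken separately, also after the data had been seen. Treated means were below 5 CPM for Trem2 (2.49, 1.10 and 2.43) and Cybb (4.94, 4.83 and 1.79). These genes passed through MEF, so the cut fixed the direction of their falls, though not the size. Among the 23 genes the SD was 0.70, 0.73 and 0.80. Ranges were -3.19 to -0.48, -3.70 (Trem2) to -0.68 and -6.05 to -2.21. Over the same genes the log2 ratio of replicate 1 to replicate 2 had an SD of 0.12 in MEF, 0.41 under carbidopa, 0.22 under LY-364947 and 0.27 under CHIR-99021. The spread between genes was wider than that between replicates in each comparison with MEF. For LY-364947 against carbidopa the SD over these genes was 0.25. It lay between the 0.22 of the LY-364947 replicates and the 0.41 of the carbidopa replicates.

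The 95% interval of each of the 30 genes was compared with the median of all 33. With carbidopa 8 genes lay wholly below the median, 7 above it, and 15 held it. Those below were Ctss, Cybb, Trem2, Adgre1, Ptprc, Cd48, Mpeg1 and Lyz2, and those above were Cd14, Cd53, Rac2, C1qb, Mrc1, C1qc and Msr1. With LY-364947 7 lay below, 11 above and 12 held it. With CHIR-99021 8 lay below, 6 above and 16 held it. Those below were Mrc1, Fcgr2b, Cd48, Adgre1, Ctss, Ptprc, Fcer1g and Lyz2, and those above were Cd14, Ncf1, Cd53, Trem2, Spi1 and Cd68. Mrc1 lay above the median under carbidopa and LY-364947 and below it under CHIR-99021, and Trem2 the reverse.

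**Figure D3:**
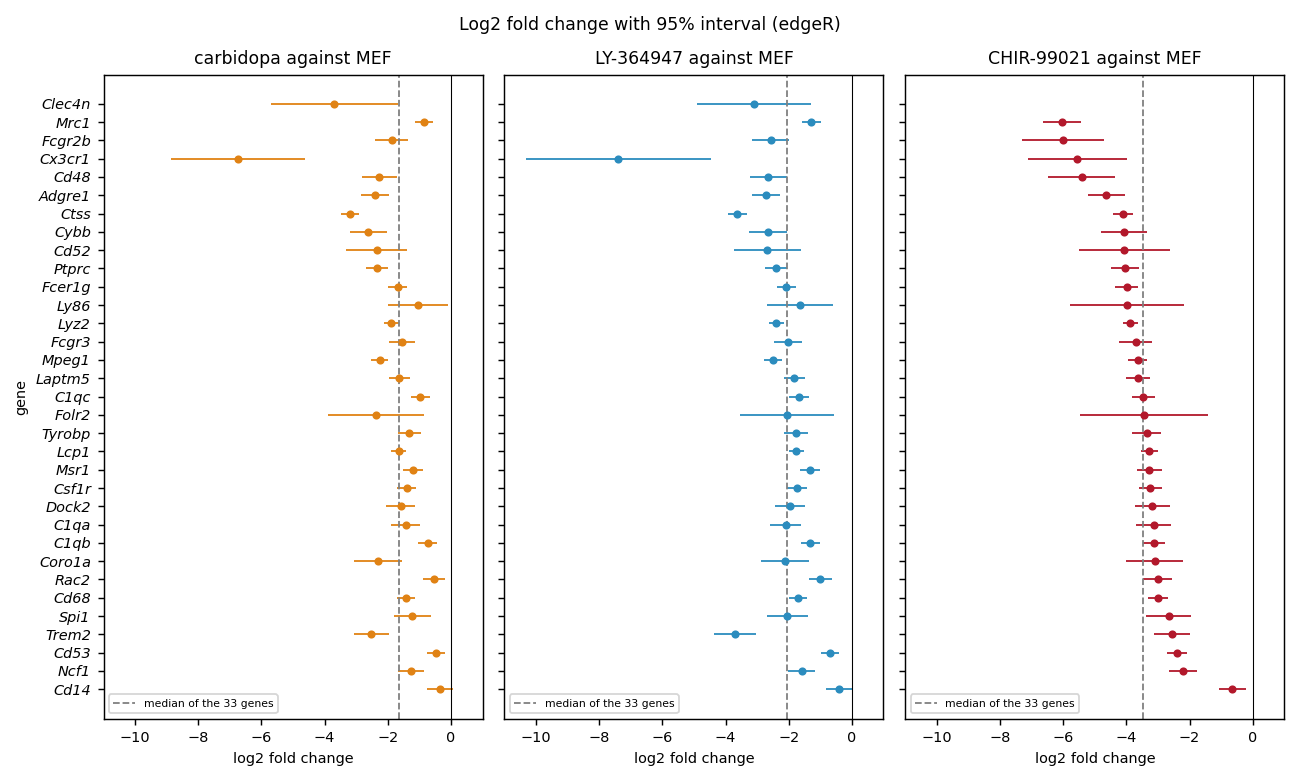
Log2 fold change of the 33 tested macrophage genes against MEF, with 95% intervals from edgeR, in 1 panel per compound. The dashed line is the median of the genes (-1.63, -2.04 and -3.46), which 16, 14 and 17 of the intervals hold, and Clec4n under CHIR-99021 is not drawn because it had no reads there.

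The make-up of the macrophage reads changed accordingly. Ctss gave 5.18% and 4.78% of the reads on the 37 genes in MEF, 1.66% to 1.96% under carbidopa and LY-364947, and 3.91% and 3.08% under CHIR-99021. Cd53 gave 1.93% and 2.24% in MEF and 4.59% to 5.81% in the treated libraries. Mrc1 made up 2.17% and 2.56% in MEF, 4.08% to 4.61% under carbidopa and LY-364947, and 0.380% and 0.476% under CHIR-99021. The share of Mrc1 thus stood above MEF with 2 compounds and below it with the other. Cd14 made up 0.318% and 0.307% in MEF and 2.62% and 2.20% under CHIR-99021. Lyz2 was the leading gene in all 8 libraries, at 31.5% to 40.0%.

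**Figure D4:**
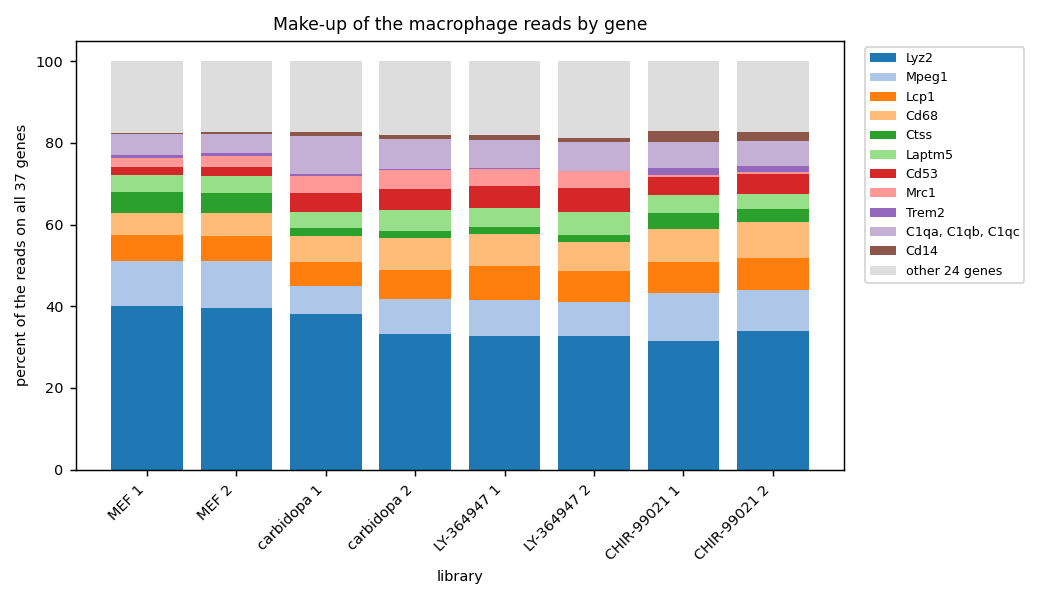
Percent of the reads on the 37 macrophage genes that each named gene gives, as stacked bars, 1 bar per library. Lyz2 gives 31.5% to 40.0%, the band of Mrc1 is thinnest under CHIR-99021, and the band of Ctss is thinner under carbidopa and LY-364947 than in MEF.

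The compounds, all used at the same dose, were then compared with each other. CHIR-99021 was lower than carbidopa for 26 of the 33 genes (edgeR, adjusted p under 0.05) and higher for 0, and 8.08% of all genes tested were lower and 6.62% higher. It was lower than LY-364947 for 22 genes, against 7.69% of all genes, and higher for 1, against 6.45%. The median differences were -1.84 and -1.53. Mrc1 had the largest gap, -5.19 (standard error 0.27, edgeR adjusted p = 1.31e-06) against carbidopa and -4.76 (0.28, 2.52e-06) against LY-364947. Trem2 stood at the other end of the 23 abundant genes, with a difference of -0.03 (95% interval -0.65 to 0.58) between CHIR-99021 and carbidopa, and was higher under CHIR-99021 than under LY-364947 by 1.14 (0.32, edgeR adjusted p = 0.0380). The last call was lost when any 1 library of MEF, LY-364947 or CHIR-99021 was left out, with values of 0.91 to 1.41. Cd14 differed by -0.29 and -0.24 and did not pass (edgeR adjusted p = 0.342 and 0.451). Ctss was lower under CHIR-99021 than under carbidopa by -0.92 (0.15, adjusted p = 0.00288, edgeR), while its difference of -0.48 from LY-364947 did not pass (adjusted p = 0.0679).

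LY-364947 and carbidopa were closer. The log2 difference was below 0 for 30 of the 33 genes, with a median of -0.38, against a median of -0.01 over all genes tested. With edgeR's test 0 genes were lower and 0 higher, against 0% and 0.0132% of all genes, while 13 of the 33 were lower at an unadjusted p under 0.05, against 4.23% of all genes. DESeq2 called 1 member lower, and 0.0736% of all genes to which it gave an adjusted p were called in either direction. Without carbidopa replicate 2 the count lower was 8, in a fit that called 3816 of 15838 genes. Trem2 had the largest difference, -1.18 (0.32, edgeR adjusted p = 0.519). The mean levels stood in the order MEF, carbidopa, LY-364947, CHIR-99021 for 28 of the 33 genes. The step from carbidopa to LY-364947 in this order is the one in which 0 genes passed edgeR's test. Shares of all genes with this order, or with a difference below 0, were not computed.

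Other genes of the macrophage program, listed separately, were mostly lower as well. Of 52 further macrophage genes, Itgam and Lilrb4a were left out because each has 2 Ensembl identifiers, and 47 could be tested. With carbidopa 37 were lower and 3 higher, under LY-364947 41 and 3, and under CHIR-99021 40 and 0. Medians of the 47 were -1.45, -1.71 and -3.13. The shares over all genes tested were 19.7%, 17.2% and 20.1% lower and 18%, 13.7% and 18.7% higher. The membrane protein gene Ms4a7 had 45.4 and 42.3 CPM in MEF, 2.17 and 1.73 under carbidopa, 2.58 and 2.13 under LY-364947 and 0.115 and 0.348 under CHIR-99021. Of the 47 genes, 2 reached the filter in MEF libraries alone and so had to be lower, and Lyve1 and Timd4 reached it in carbidopa and LY-364947 libraries alone and so had to be higher there. The genes counted as higher under carbidopa and LY-364947 were Clec7a, Lyve1 and Timd4, named after their values were seen. Clec7a, the beta-glucan receptor Dectin-1, had 2.23 and 2.71 CPM in MEF, 7.96 and 6.76 under carbidopa, 6.01 and 5.17 under LY-364947 and 2.59 and 4.53 under CHIR-99021. Timd4, a phosphatidylserine receptor of resident macrophages, had 0 and 0 reads in MEF, 13 and 10 under carbidopa, 11 and 5 under LY-364947 and 1 and 0 under CHIR-99021. Lyve1, a hyaluronan receptor of lymphatic vessels and some macrophages, had 1 and 1 reads in MEF, 13 and 14 under carbidopa, 6 and 12 under LY-364947 and 1 and 3 under CHIR-99021.

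Of the ligands of Csf1r, Csf1, which encodes the growth factor M-CSF, had 509.7 and 475 CPM in MEF, 293 and 283 under carbidopa, 256 and 279 under LY-364947 and 559.6 and 489 under CHIR-99021. Csf1 was lower under carbidopa and LY-364947, with changes of -0.77 (0.10) and -0.88 (0.10). With CHIR-99021 its change was 0.09 (95% interval -0.14 to 0.32, edgeR adjusted p = 0.529) and did not pass in the group with the fewest macrophage transcripts. Il34 had 26 and 20 reads in MEF, 9 and 9 under carbidopa, 4 and 11 under LY-364947 and 2 and 2 under CHIR-99021, with changes of -1.91, -1.95 and -3.71. Of 7 ITAM kinases and adaptors, 5 were tested, and 5, 5 and 4 were lower, against 19.7%, 17.2% and 20.1% of all genes tested. Among them was the kinase Syk with -1.07, -1.15 and -1.82.

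Genes that macrophages share with other cells moved less or both ways. Over all genes tested, 19.7%, 17.2% and 20.1% were lower and 18%, 13.7% and 18.7% higher. The lists here are short, so their counts are a description and were not tested against those shares. Of 9 complement genes other than C1q, 5, 5 and 6 were lower and 3, 3 and 1 higher. Of those higher under carbidopa and LY-364947, 1 reached the filter in treated libraries alone. The complement gene C4b changed by -3.37, -4.14 and -4.77. Of 11 lysosomal and phagocytic genes 4, 3 and 7 were lower and 2, 1 and 0 higher, with medians of -0.02, -0.19 and -0.44. Gpnmb changed by -1.31, -1.5 and -2.21. Among 8 osteoclast genes 5 were tested, 2 were lower and 1 higher with each compound. The higher gene was Mmp9, a gelatinase, with 0.967 and 0.710 CPM in MEF, 21.2 and 21.1 under carbidopa, 16.1 and 16.0 under LY-364947 and 2.30 and 1.39 under CHIR-99021.

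**Figure D5:**
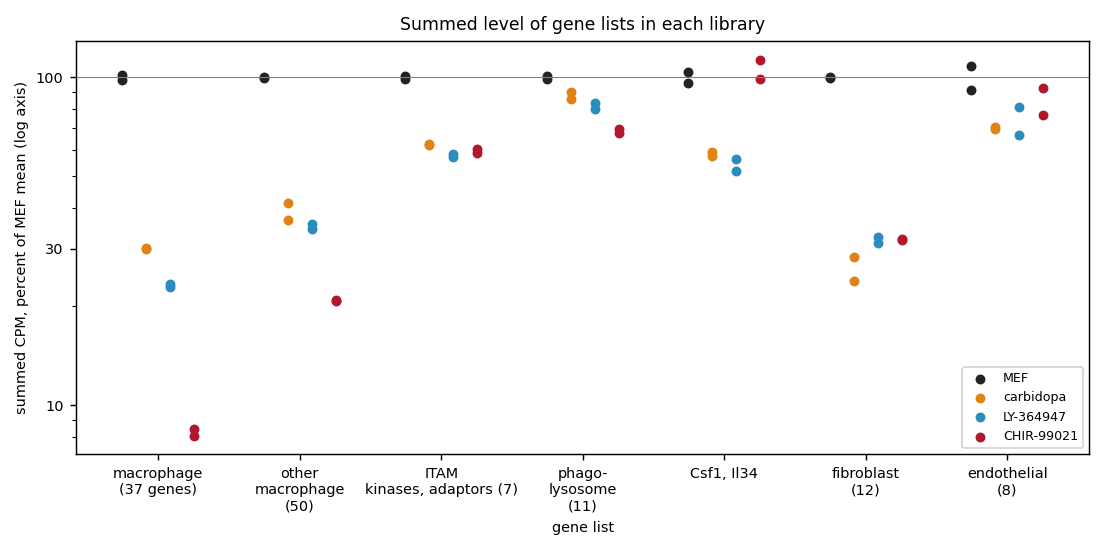
Summed CPM of each gene list in each library as percent of the mean of the MEF libraries, on a log axis, 2 points per group. The macrophage genes stand at 30.1%, 23.2% and 8.26% under carbidopa, LY-364947 and CHIR-99021, while the sum of Csf1 and Il34 under CHIR-99021 is 106% of MEF.

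Transcripts that mark other cell types were scarce. The 10 neutrophil genes summed to 0.112 to 1.41 CPM over the 8 libraries, the 8 lymphocyte genes to at most 0.320, the 7 red cell genes to at most 0.581 and the 7 mast cell genes to at most 1.55. Of these genes the mast cell gene Ms4a2 alone passed the filter, with 14 and 14 reads in MEF, 4 and 7 under carbidopa, 5 and 1 under LY-364947 and 1 and 4 under CHIR-99021. It reached the filter in MEF libraries alone and so had to be lower with each compound. The 5 megakaryocyte genes summed to 2.53 to 4.16 CPM and the 6 dendritic cell genes to 2.25 to 4.68. Of 3 megakaryocyte genes tested 0, 0 and 1 were lower, and of 2 dendritic cell genes 1, 0 and 1. The 8 endothelial genes summed to 17.7 to 20.9 CPM in MEF and 12.9 to 17.9 in treated libraries, and of 4 tested 1, 1 and 2 were lower. These counts rest on few genes. They were not tested against the 19.7%, 17.2% and 20.1% of all genes tested that were lower.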

How the data were processed

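Gene expression was measured by RNA-seq in untreated MEFs and in MEFs given 1 of 3 compounds, with 2 libraries in each group. According to the methods and labels, the authors aligned reads to the mm10 genome (STAR 2.4.2a), assigned them to genes with featureCounts and deposited the raw counts. The annotation release and strand setting are not given in the sources used here, so reads of genes that overlap on opposite strands may be mixed. The methods name NEBNext libraries and the labels a SMARTER kit.

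The counts were analysed in R 4.3.3 with edgeR 4.0.16 by TMM scaling, filterByExpr and the quasi-likelihood test. The model held the group alone and was fitted to all 8 libraries, and p-values were adjusted over 15154 genes (30.0% of those listed, biological coefficient of variation 11.0%) by the Benjamini-Hochberg method. Standard errors and 95% intervals came from the fitted means and the posterior quasi-dispersion. Intervals for pooled reads are exact binomial and, like the limit of 3 reads for a count of 0, cover counting error only. Positions, exon lengths, overlaps and 75-base words came from GENCODE M21, which held 50354 of the 50578 identifiers. The scripts were tested on simulated data.

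The members, lists, tests and naming rule were chosen with earlier results of these data known. All members were named. Values per library were given for 16 set genes and for the 3 largest and 3 smallest falls in each comparison with MEF. Of the other lists, up to 3 genes with the smallest p were named, besides Csf1 and Il34. Genes stated as such were named after their values were seen. Alternatives were RLE size factors, no filter, at least 10 counts in every library, DESeq2 1.42.0, only the groups compared, blocking on the replicate number, and leaving out each library. The subsets with a mean of at least 5 CPM, or reaching the filter in both libraries of a treated group, were added after seeing the data.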

Additional observations from a re-analysis of the deposited data

How the results depend on the processing

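Every comparison with MEF kept its direction under all alternatives, for the median and for each tested gene. With at least 10 counts in every library the medians were -1.44, -1.82 and -3.30 under the 3 compounds (carbidopa first, CHIR-99021 last), and the SDs 0.71, 0.77 and 0.97. That filter drops the genes that fell to few reads. For CHIR-99021 against carbidopa and LY-364947 the SDs were then 0.93 and 0.99. The genes with a mean of at least 5 CPM over all libraries, MEF included, were chosen after seeing the data. For them the medians against MEF were -1.55, -1.82 and -3.36 with SDs of 0.70, 0.73 and 0.80. Against carbidopa CHIR-99021 then had an SD of 0.91, and against LY-364947 a median of -1.59 and an SD of 0.98, and LY-364947 against carbidopa an SD of 0.25. For the 30 genes that reached the filter in both libraries of a treated group, also chosen after seeing the data, the SDs were 0.70, 0.73 and 1.07 against MEF and the LY-364947 median -1.996. Between treatments, CHIR-99021 then had an SD of 1.01 against carbidopa, and a median of -1.56 with an SD of 1.01 against LY-364947. Without a filter the carbidopa median was -1.55, the SDs against MEF were 1.30, 1.35 and 1.39, and that of CHIR-99021 against carbidopa was 1.23. In that fit LY-364947 was lower than carbidopa for 4 of the 37 genes, against 0.477% of all genes. DESeq2 gave SDs of 1.24 with carbidopa and 1.33 with CHIR-99021. It called 1 gene lower with LY-364947 than with carbidopa, against 0.0736% of all genes called in either direction. With the compared groups alone, CHIR-99021 had an SD of 1.01 against carbidopa, and a median of -1.57 and an SD of 1.04 against LY-364947. With RLE size factors the carbidopa sum was 29.4% of MEF. The causes of these shifts were otherwise not tested.

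Deviations of libraries with the same replicate number correlated at -0.218 to 0.191. With 2 libraries per group this cannot settle whether the numbers pair the libraries. With the replicate block the CHIR-99021 median was -3.57, Cybb in LY-364947 against carbidopa was 0.000235, and calls over all genes went from 5717, 4694 and 5878 to 5473, 4424 and 5722 for carbidopa, LY-364947 and CHIR-99021 against MEF.

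With 1 library left out at a time, carbidopa, LY-364947 and CHIR-99021 were each compared with MEF again. The medians ran over -1.79 to -1.61, -2.05 to -1.89 and -3.56 to -3.45, and the SDs over 1.15 to 1.20, 1.05 to 1.53 and 1.20 to 1.48. Between treatments, CHIR-99021 was lower for 22 to 26 genes against carbidopa (SD 1.14 to 1.39) and 19 to 24 against LY-364947 (median -1.61 to -1.52, SD 1.13 to 1.5), with 0 to 1 higher against LY-364947. LY-364947 was lower than carbidopa for 0 to 8 genes (median -0.41 to -0.37, SD 0.32 to 0.58). Genes whose sign turned, without passing the test, were in LY-364947 against carbidopa Ptprc -0.21 to 0.12, Laptm5 -0.37 to 0.015, Lcp1 -0.22 to 0.033, Cybb -0.47 to 0.59, Folr2 -0.48 to 0.83, Coro1a -0.22 to 0.49, Cd52 -1.11 to 0.20 and Cx3cr1 -2.94 to 0.23, and in CHIR-99021 against carbidopa Trem2 -0.33 to 0.35.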
